A study of Gallus gallus with 18 samples.

Results

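Livers of broiler chickens fed 15% insect meal were compared with livers of broilers fed 7.5% insect meal, gene by gene, to see what doubling the dose of meal was accompanied by. The comparison took the 6 arrays labelled HI15 and the 6 labelled HI7.5, which are 12 of the 18 arrays of the series; the other 6, labelled HI0, came from birds on the same basal diet without insect meal. The insect meal was a partially defatted meal of black soldier fly larvae (Hermetia illucens, HI) at 0 g per kg of diet in HI0, 75 g per kg in HI7.5 and 150 g per kg in HI15. All birds were male Cobb 500 broilers, entered the trial 1 day old and ate their diet for 35 days. The larvae meal took the place of soybean meal, soybean oil and wheat, so the HI15 diet also held less of these than the HI7.5 diet. Synthetic amino acids were added so that every diet met the breeder's targets for digestible essential amino acids.

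Birds shared cages, 4 to a cage, in a trial of 72. Neither the cage behind an array nor whether all arrays come from separate birds is labelled, so p-values measure only the spread between these samples, part of which may be technical. Whole liver was used, and in such bulk samples fewer cells of a type and less RNA per cell cannot be told apart.

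The liver of a growing broiler makes most of the bird's fat and cholesterol, secretes the plasma proteins, breaks down surplus amino acids and turns their nitrogen into uric acid by way of purine synthesis. Soybean and larvae meal differ in their amino acid balance, in their fatty acids, in sterols and in chitin, a polymer of amino sugar that the insect cuticle contains. Sterol, amino acid and fatty acid supply act on the liver through transcription factors that are themselves regulated by nutrients. The comparison of HI15 with HI7.5 addresses what differs between 2 amounts of the same ingredient.

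Values are log2 signals of single-colour Affymetrix arrays, so a difference of 1 is a doubling. They were made by the authors with robust multi-array average (RMA), which corrects background and normalizes between arrays. Array medians lay between 7.23 and 7.29 in HI15 and between 7.23 and 7.31 in HI7.5. Arrays correlated at a median of 0.984 within HI15, 0.981 within HI7.5 and 0.982 between the diets. The median SD of a probe set was 0.18 over the HI15 arrays and 0.22 over the HI7.5 arrays. No depth applies to arrays, and their number limits the precision.

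The samples carried the liver's defining markers at high signals. Albumin, ALB, averaged 14.49 in HI15 and 14.51 in HI7.5, and transthyretin, TTR, 13.95 and 14.01 in the same order. Over the 14 hepatocyte markers measured the differences ran from -0.10 to 0.06, with 5 above 0 and 8 below. FGB, a fibrinogen chain of that list, was at -0.06 ± 0.07 (SE). APOA1, the main protein of high-density lipoprotein, was at 0.06 ± 0.07 on its brightest probe set, and its other sets were at 0.02 and 0.15. Carbamoyl-phosphate synthetase CPS1, the entry enzyme of the mammalian urea cycle, averaged only 6.25 in HI15 and 6.26 in HI7.5.

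Markers of other cells were also compared. Medians were 0.06 for 8 bile duct markers, 0.06 for 13 endothelial markers, 0.01 for 10 red cell markers and -0.02 for 19 lymphocyte markers. Red cell markers had the widest spread of these lists over the 12 arrays, with list means from -0.46 to 0.51 in HI15 and from -0.39 to 0.22 in HI7.5, both relative to the HI7.5 mean. Of the 11 myeloid markers 9 were below 0, with a median of -0.10. The myeloid marker with the smallest p was the chemokine gene IL8L1, at -0.27 ± 0.11 (SE), and IL8L2 was at -0.11 ± 0.09. IL8L1 was dim, from 4.96 to 5.37 in HI15 and from 5.10 to 5.67 in HI7.5. Bile duct markers included keratin KRT8 at -0.18 ± 0.14 and the transcription factor SOX9 at 0.11 ± 0.12, and red cell markers the globin HBE at -0.19 ± 0.15 and the blood group gene RHCE at -0.27 ± 0.26. The lymphocyte markers IL7R, a cytokine receptor, and GZMA, a granzyme, were at -0.28 ± 0.18 and 0.31 ± 0.21. Pancreas and gut markers had a median of 0.01 over 18 genes, and muscle and fat markers -0.02 over 9, with actin ACTA1 at 0.20 ± 0.15 and myosin MYH1E at -0.20 ± 0.21. The aminopeptidase ANPEP was bright, at 11.12 ± 0.18 in HI15 and 10.87 ± 0.13 in HI7.5 (SD, n = 6), while the fatty acid binding protein FABP2 of the gut was at 4.11 ± 0.29 in HI15 and 3.88 ± 0.33 in HI7.5 and insulin, INS, averaged 4.85 in HI15 and 4.95 in HI7.5.

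No gene passed the test between the doses. With limma, 0 of 18226 probe sets (0%) were called at a Benjamini-Hochberg adjusted p under 0.05, and the smallest adjusted p was 0.832. At an unadjusted p under 0.05 there were 576 probe sets. If nothing differed the average would be 911, with a wider spread around it where probe sets vary together. Of the 576, 363 (1.99% of all) were higher in HI15 and 213 (1.17%) were lower. After quantile normalization the split turned round, with 349 higher and 398 lower, and without HI7.5 replicate 3 it was 408 and 421, so no direction is drawn from it. For 91.3% of probe sets the whole 95% interval was inside 1.5-fold in either direction, and for 99.0% inside 2-fold.

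Named genes were each represented by their brightest probe set, which gave 11528 genes. The median difference over these genes was 0.00, and 51.1% were above 0. At an unadjusted p under 0.05 there were 186 genes higher in HI15 (1.61%) and 109 lower (0.946%). Differences past 1.5-fold were measured for 12 higher and 17 lower genes, and 1 gene, DDX60, passed 2-fold. The 6 HI15 arrays all lay above the 6 HI7.5 arrays for 6 genes (0.0520%) and all below for 1 gene (0.00867%). How many genes would part in this way if nothing differed was not computed, so nothing is read from these counts. In what follows, differences are HI15 minus HI7.5 on the log2 scale with the standard error (SE) of the limma fit, p under 0.05 means unadjusted, and the limma adjusted p was 0.999 unless it is given.

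**Figure D1:**
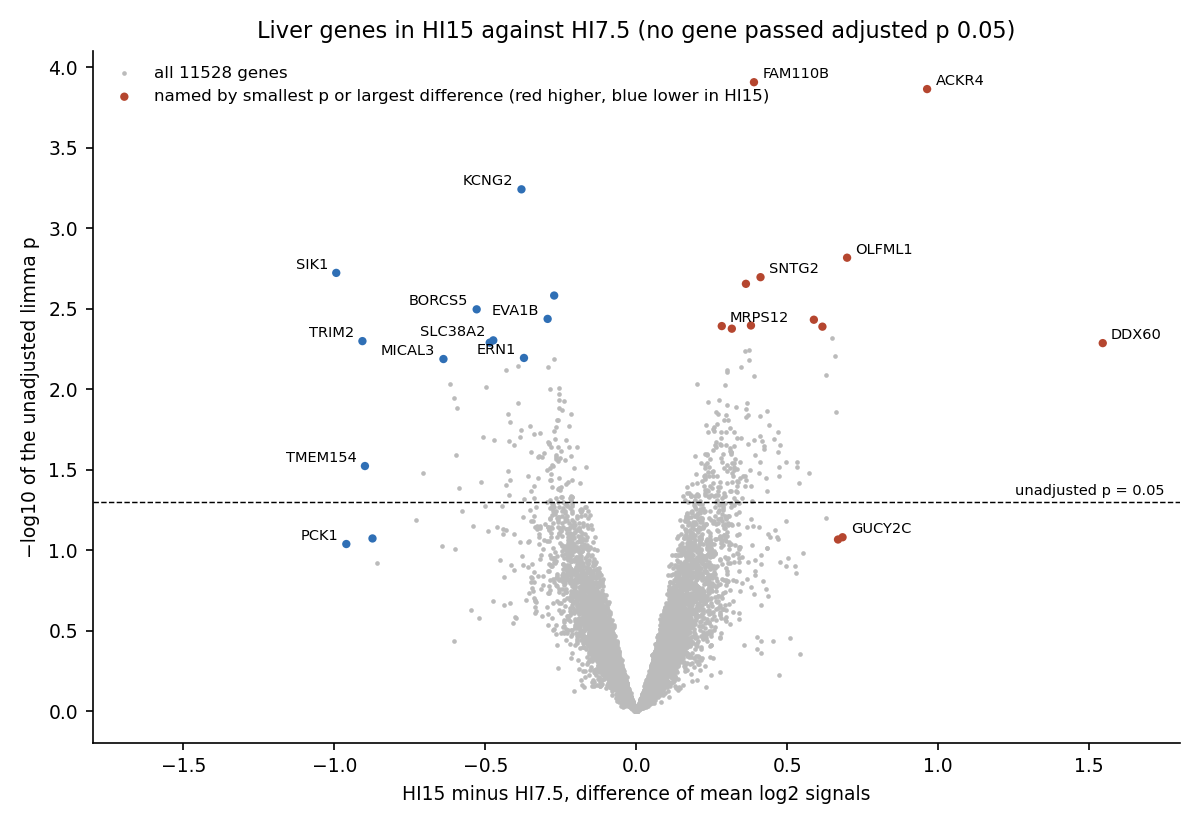
Each point is 1 of the 11528 genes, with the difference of mean log2 signals, HI15 minus HI7.5, on the horizontal axis and −log10 of the unadjusted limma p on the vertical axis. ACKR4 and FAM110B stand highest, DDX60 lies farthest to the right at 1.55 and SIK1 farthest to the left at -0.99, and no gene passed an adjusted p of 0.05.

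ACKR4 and FAM110B had the smallest p of all genes. ACKR4, a scavenging chemokine receptor that removes chemokines without G protein signalling, had lowest, median and highest signals of 7.75, 8.02 and 8.61 in HI15, against 6.48, 7.13 and 7.75 in HI7.5. The groups met at 1 value, and every HI15 array lay above the HI7.5 mean. The difference was 0.96 ± 0.21 (SE), or 1.95-fold, with a 95% interval of 0.54 to 1.39 and a limma adjusted p = 0.832. FAM110B, which encodes a protein of the centrosome region, had 6.75, 7.03 and 7.19 in HI15, against 6.52, 6.62 and 6.75 in HI7.5. Here too the groups only met at their edge. FAM110B was at 0.39 ± 0.08 (SE), with an interval of 0.22 to 0.56 and the same adjusted p.

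The next higher genes were a secreted protein, a membrane scaffold and a peptidase. OLFML1, a secreted protein with an olfactomedin domain, had 6.21, 6.43 and 7.06 in HI15, against 5.19, 5.90 and 6.22 in HI7.5. HI15 replicate 5 at 6.21 lay just under HI7.5 replicate 3 at 6.22, with no other overlap, and the difference was 0.70 ± 0.19 (SE). SNTG2, a syntrophin that links membrane proteins to the cytoskeleton, had 4.84, 4.92 and 5.31 in HI15, against 4.31, 4.58 and 4.75 in HI7.5, at dim signals. Its groups did not overlap, and the difference was 0.41 ± 0.12. XPNPEP2, a membrane aminopeptidase that cuts before proline, ran from 8.5 to 8.97 in HI15 and from 8.12 to 8.53 in HI7.5, with a difference of 0.36 ± 0.10.

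The list of the 10 smallest p in the higher direction was completed by CHST10, a carbohydrate sulfotransferase, by MRPS12, by G6PC2 and by 2 microRNA genes. CHST10 was at 0.38 ± 0.12 (SE), and its HI15 arrays lay close together with an SD of 0.07, against 0.29 in HI7.5. MRPS12, a protein of the small subunit of the mitochondrial ribosome, had 7.72, 7.81 and 7.93 in HI15, against 7.34, 7.50 and 7.70 in HI7.5. Those groups did not overlap, and the difference was 0.28 ± 0.09. G6PC2, a glucose-6-phosphatase known in mammals from pancreatic islets, had 6.81, 6.93 and 7.06 in HI15, against 6.36, 6.56 and 6.95 in HI7.5, a difference of 0.32 ± 0.10. HI7.5 replicates 3 and 4 lay inside the HI15 range of G6PC2. The microRNA genes MIR135A2 and MIR1682 were at 0.59 ± 0.18 and 0.62 ± 0.19. MIR135A2 was dim, with mean signals of 4.47 in HI15 and 3.88 in HI7.5, and MIR1682 averaged 6.30 and 5.68. As a class, microRNA probe sets were dimmer and more variable than those of all genes.

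DDX60 had the widest difference of any gene. It encodes a helicase that in mammals is induced by interferon and takes part in sensing viral RNA. Its signals were 7.28, 7.82 and 9.65 in HI15, against 5.80, 6.52 and 8.0 in HI7.5. The HI15 arrays spread over more than 2 log2 units, and replicate 3 of HI7.5 at 8.0 lay above 4 of the 6 HI15 arrays. The difference was 1.55 ± 0.49 (SE), or 2.92-fold, with an interval of 0.52 to 2.57. The other probe set of DDX60 was at 1.13. Leaving out each array in turn gave 1.25 to 1.82. Replicates 1 and 5 of HI15, at 8.93 and 9.65, were its highest arrays.

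**Figure D2:**
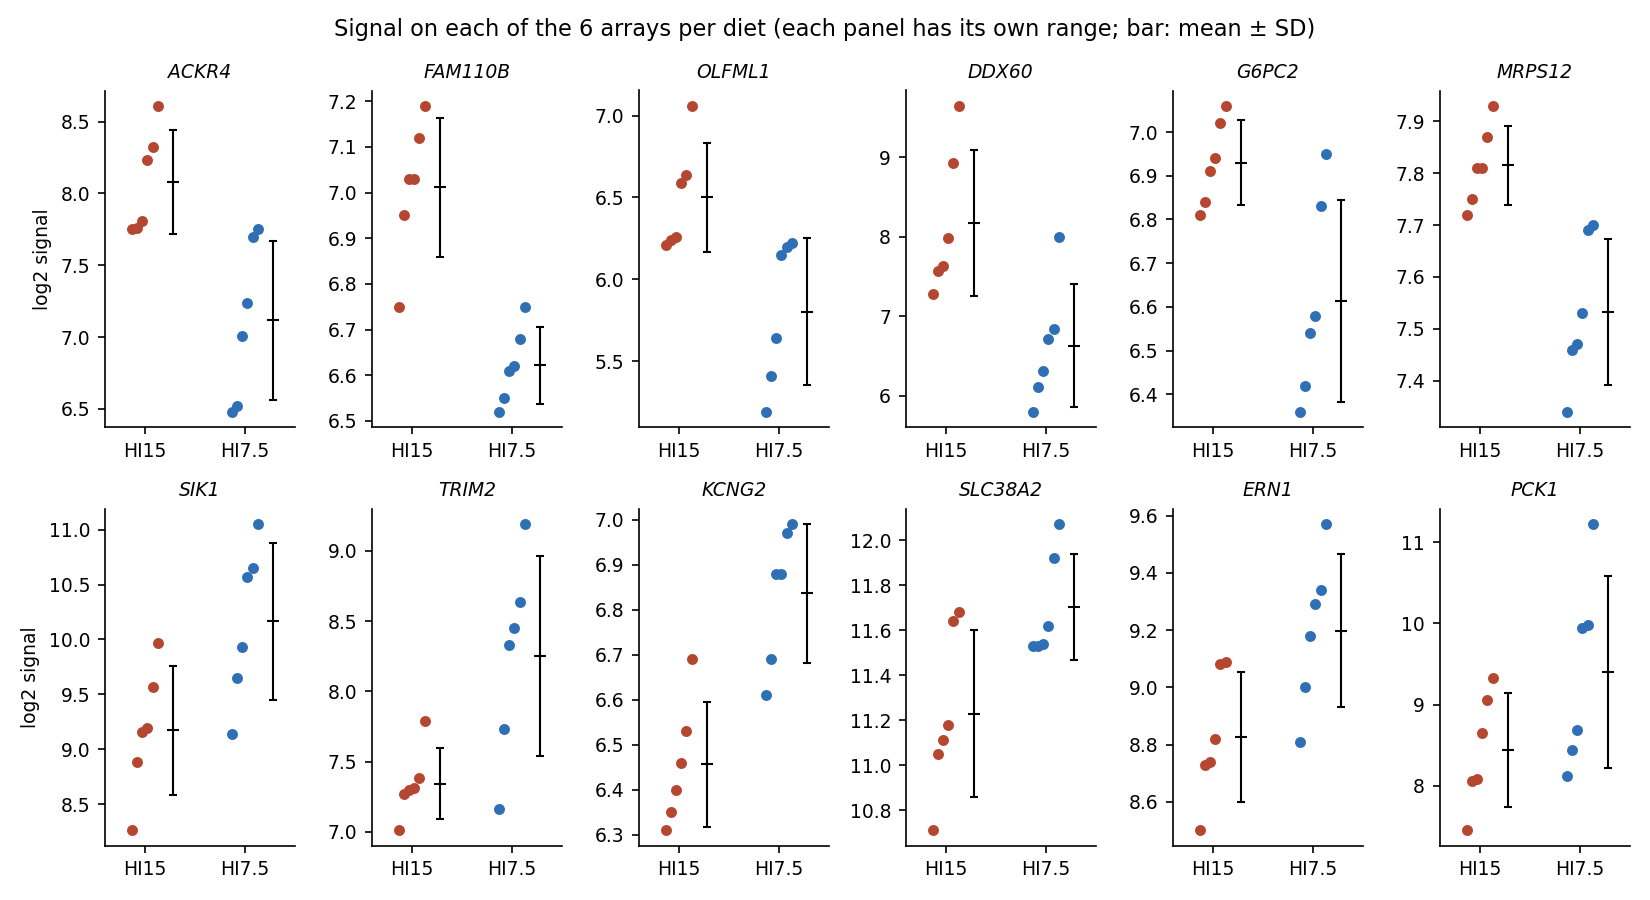
Log2 signal of 12 genes on each array, with the 6 HI15 arrays in red on the left and the 6 HI7.5 arrays in blue on the right of each panel, and the mean ± SD beside them. ACKR4, FAM110B and MRPS12 meet or part at their edges, DDX60 overlaps through 1 HI7.5 array at 8.0, and PCK1 overlaps across much of its range.

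Other genes with large higher differences were more variable. GUCY2C, the guanylate cyclase receptor known from the gut, had 7.18, 8.12 and 9.0 in HI15, against 6.57, 7.55 and 8.57 in HI7.5, and the difference of 0.68 ± 0.37 (SE) had an interval of -0.10 to 1.46. LOC422154, a gene without a named function, was at 0.67 ± 0.37, and HI7.5 replicate 1 lay far below its group at 6.79. Leaving that array out gave the lower end of its range of 0.31 to 0.83. RRM2, the small subunit of ribonucleotide reductase, was at 0.63 ± 0.32. The remaining genes past 1.5-fold upward were LOC776232 at 0.66 ± 0.24 and the microRNA genes MIR1796 at 0.66 ± 0.21, MIRLET7F1 at 0.65 ± 0.20 and MIR1556 at 0.63 ± 0.21. RRM2 and these 4 genes were named after their values were seen.

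Among the lower genes, SIK1 had the widest difference. SIK1 is a kinase induced by cyclic AMP that in mammals restrains cyclic AMP-driven genes of glucose production. It had 8.26, 9.18 and 9.97 in HI15, against 9.14, 10.25 and 11.05 in HI7.5. All 6 HI15 arrays lay below the HI7.5 mean, and replicates 1, 2 and 6 of HI7.5, at 9.93, 9.65 and 9.14, lay inside the HI15 range. The difference was -0.99 ± 0.28 (SE), or 1.99-fold lower, with an interval of -1.57 to -0.41. TRIM2, a ubiquitin ligase, had 7.01, 7.31 and 7.79 in HI15, against 7.16, 8.39 and 9.19 in HI7.5, a difference of -0.91 ± 0.29. The HI15 arrays of TRIM2 were tight, with an SD of 0.25, and those of HI7.5 spread with an SD of 0.71.

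KCNG2, a modulatory subunit of voltage-gated potassium channels, had the smallest p in this direction. Its signals were 6.31, 6.43 and 6.69 in HI15, against 6.61, 6.88 and 6.99 in HI7.5, with the groups overlapping between 6.61 and 6.69. KCNG2 differed by -0.38 ± 0.09 (SE). BORCS5, a subunit of the complex that positions lysosomes, had 5.01, 5.20 and 5.53 in HI15, against 5.44, 5.71 and 6.29 in HI7.5, and was at -0.53 ± 0.16. EVA1B, a small membrane protein, was at -0.29 ± 0.09, with 7.32 to 7.60 in HI15 and 7.55 to 7.86 in HI7.5. SLC45A3, a membrane transporter, was at -0.27 ± 0.08, but its other probe set was at 0.05, so the gene's 2 probe sets differed in sign.

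The sodium-coupled neutral amino acid transporter SLC38A2, which mammalian cells make more of when amino acids run short, was also among these genes. It had 10.71, 11.15 and 11.68 in HI15, against 11.53, 11.58 and 12.07 in HI7.5. Replicates 1 and 6 of HI15, at 11.64 and 11.68, lay inside the HI7.5 range and the other 4 below it. The difference was -0.47 ± 0.15 (SE), with an interval of -0.79 to -0.16. ERN1, which encodes the endoplasmic reticulum stress sensor IRE1, had 8.5, 8.78 and 9.09 in HI15, against 8.81, 9.24 and 9.57 in HI7.5, a difference of -0.37 ± 0.12. MICAL3, a monooxygenase that acts on the cytoskeleton, was at -0.64 ± 0.21 and its other probe set at -0.55. The microRNA gene MIR146C-1 was at -0.49 ± 0.15, and its other probe set was also at -0.49.

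PCK1 had nearly as wide a difference as SIK1 with a far wider spread. PCK1 is the cytosolic phosphoenolpyruvate carboxykinase, an enzyme of glucose production that fasting and cyclic AMP induce. It had 7.45, 8.37 and 9.33 in HI15, against 8.12, 9.32 and 11.22 in HI7.5. HI7.5 replicate 1 stood at 11.22, more than 1 log2 unit above any other array of the 2 diets. The difference was -0.96 ± 0.54 (SE) with an interval of -2.09 to 0.17 that included 0. Leaving out each array in turn gave -1.22 to -0.60.

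TMEM154 and WDPCP completed the 5 largest differences downward. TMEM154, a transmembrane protein, had 5.51, 6.30 and 8.67 in HI15, against 6.68, 7.39 and 8.52 in HI7.5, a difference of -0.90 ± 0.38 (SE). In TMEM154 1 HI15 array, replicate 6 at 8.67, was above all HI7.5 arrays, and without it the difference was -1.32. WDPCP, a planar cell polarity effector of cilia, was at -0.87 ± 0.48, with 7.76 to 9.49 in HI15 and 7.70 to 10.87 in HI7.5. The WDPCP interval of -1.88 to 0.13 included 0.

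The other lower genes past 1.5-fold were chosen after their values were seen. DIO2, the deiodinase that activates thyroid hormone, had 7.53, 8.08 and 9.78 in HI15, against 8.09, 9.44 and 10.56 in HI7.5, and was at -0.86 ± 0.53 (SE). The DIO2 groups overlapped between 8.09 and 9.78. CHKA, choline kinase, was at -0.71 ± 0.31, and the mitochondrial carrier SLC25A30 at -0.62 ± 0.21. CREB5, a transcription factor of the cyclic AMP response family, had 7.02, 7.12 and 7.87 in HI15, against 6.96, 8.0 and 8.39 in HI7.5, and was at -0.59 ± 0.22. PDE11A, which degrades cyclic nucleotides, was at -0.64 ± 0.37, and HKDC1, a hexokinase, at -0.60 ± 0.35. ANGPTL4, a secreted inhibitor of lipoprotein lipase, was at -0.60 ± 0.65, the glutamate receptor gene GRIK4 at -0.60 ± 0.22, the bradykinin receptor gene BDKRB2 at -0.60 ± 0.25 and CTSEAL at -0.59 ± 0.27. EGR1, described with the immediate early genes, was the last of the 17.

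The genes whose groups did not overlap had differences below 1.5-fold. Beside SNTG2 and MRPS12, RBM15, an adaptor of the RNA methylation machinery, had 6.74, 6.84 and 6.96 in HI15, against 6.36, 6.51 and 6.73 in HI7.5, a difference of 0.30 ± 0.10 (SE). The gap between the RBM15 groups was 0.01. CREG2, a secreted glycoprotein, was at 0.28 ± 0.11, and the chaperone cofactor DNAJB8 at 0.24 ± 0.09. In both of these genes 1 HI15 array lay well above the other 5, and in AP3B2 1 lay well below. RPS28, a protein of the small ribosomal subunit, was the sixth gene, at 0.20 ± 0.08. AP3B2, a subunit of an adaptor complex for vesicle transport, was the single gene with all HI15 arrays below, at -0.23 ± 0.11.

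The HI0 arrays add the third dose, without entering the difference. For each of the 20 genes with the smallest p, 10 in each direction, the HI0 mean lay between the HI7.5 and the HI15 mean. Over all genes the HI0 mean lay between them in 31.9%. The 20 genes were picked for a wide step between the doses, which leaves more room between the means, so nothing is read from this count. ACKR4 means were 7.71 in HI0, 7.12 in HI7.5 and 8.08 in HI15. SIK1 means were 9.64 in HI0, 10.17 in HI7.5 and 9.17 in HI15, and KCNG2 means were 6.82 in HI0, 6.84 in HI7.5 and 6.46 in HI15. In KCNG2 the HI0 and HI7.5 means nearly coincided, while in ACKR4 and SIK1 the HI0 mean differed from both other means. Single arrays were not separated. HI0 ran from 7.51 to 7.94 in ACKR4, overlapping both meal diets, and from 9.38 to 9.90 in SIK1, inside the range of each meal diet. HI7.5 is shared by the 2 steps, HI7.5 minus HI0 and HI15 minus HI7.5, so the steps are not independent. For DDX60 they were 0.02 and 1.55, for TRIM2 0.27 and -0.91, and for MIR1682 -0.56 and 0.62. High DDX60 was not limited to HI15. HI0 replicate 1 was at 9.01, above every HI15 array but replicate 5. The remaining HI0 arrays had DDX60 between 5.84 and 6.46.

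**Figure D3:**
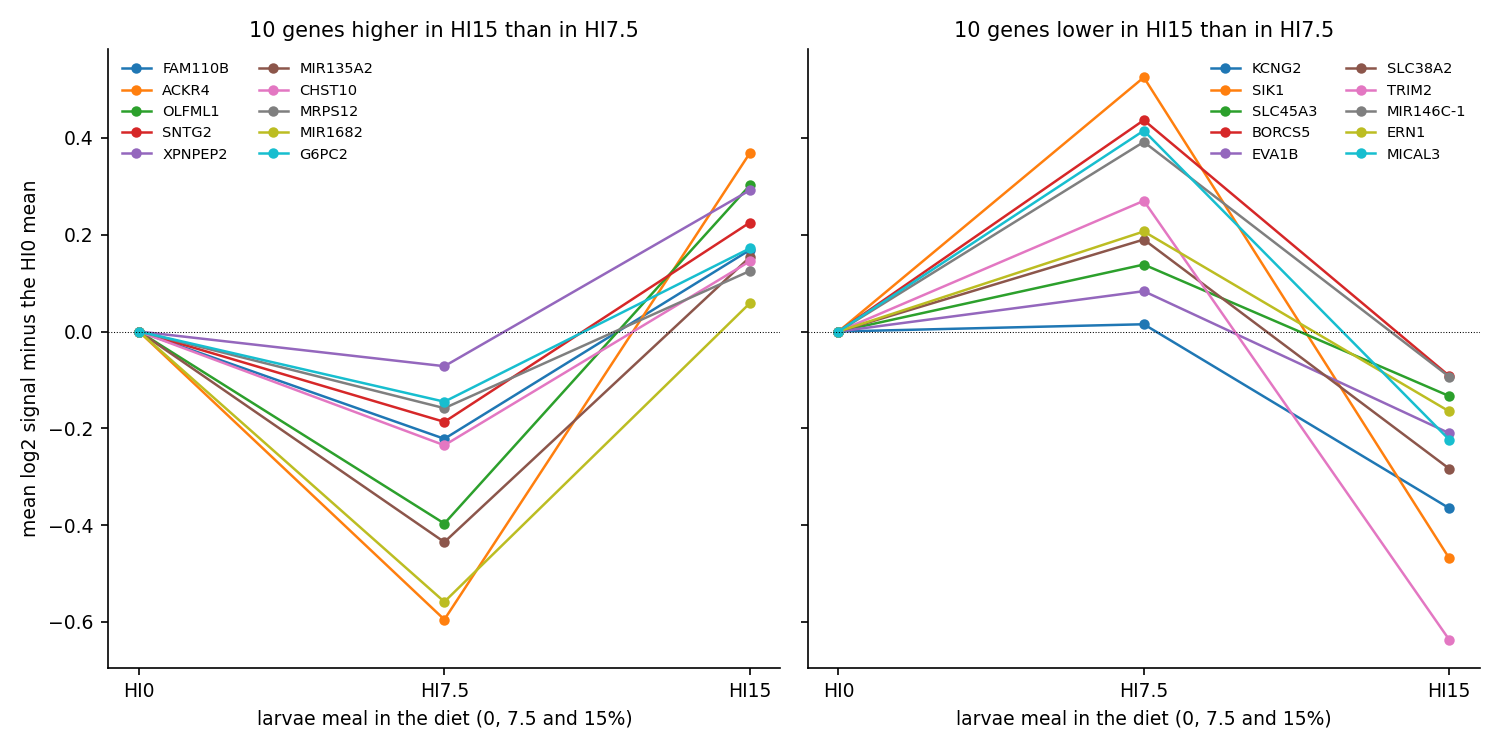
Mean log2 signal of the 20 genes with the smallest p, minus each gene's HI0 mean, against the share of larvae meal in the diet, with 1 line per gene and 6 arrays per point. In all 20 genes the line bends at HI7.5, with HI0 between the 2 meal diets, as in ACKR4 at -0.60 in HI7.5 and 0.37 in HI15.

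The genes were next read by liver process, in lists that are described by counts and medians. No member of any list passed adjustment. The background for each list is the 51.1% of all genes above 0, with a median of 0.00, and the 1.61% and 0.946% of genes at p under 0.05 in the higher and lower direction. Members of a list vary together from array to array, so a count of members says less than it would for independent genes, and the mean of a list on each array is given beside it.

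**Figure D4:**
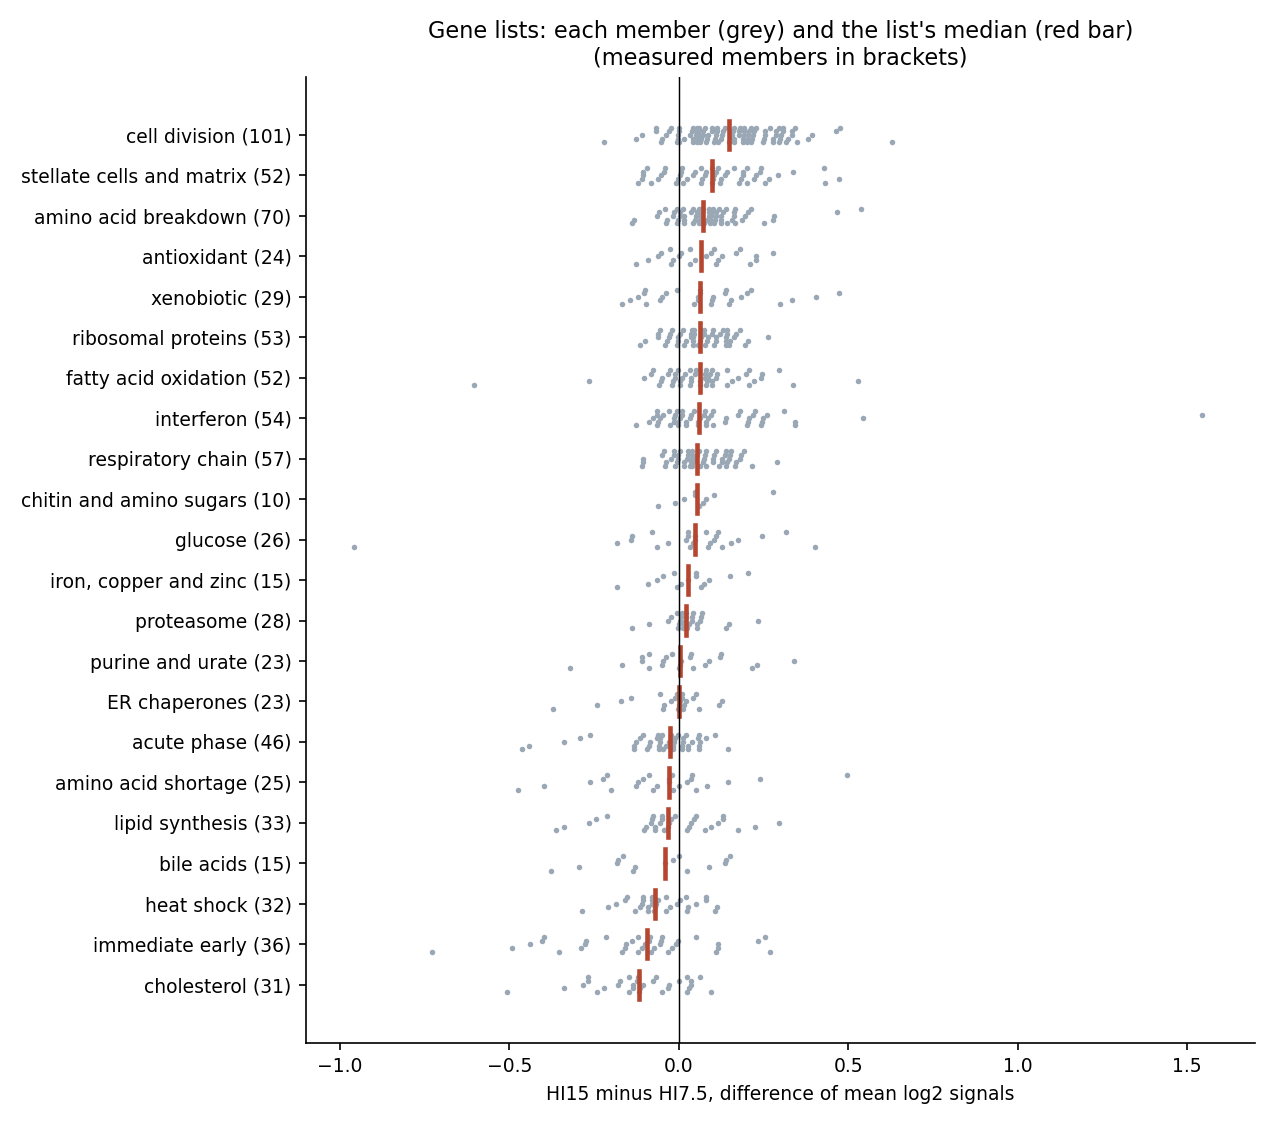
Differences HI15 minus HI7.5 of the members of 22 process lists (grey points, measured members in brackets) on the log2 scale, with the list's median as a red bar, ordered by median. Cell division has the highest median at 0.15 and cholesterol the lowest at -0.12, and the members of every list spread on both sides of 0.

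Genes of cell division had the highest median of the lists. Of 101 measured members 87 were above 0 and 13 below, with a median of 0.15. At an unadjusted p under 0.05 8 were higher and 0 lower. Means of the list on single arrays, relative to the HI7.5 mean, were -0.05, 0.17 and 0.31 in HI15 (lowest, median and highest), against -0.15, -0.03 and 0.25 in HI7.5. The array means overlapped, with 3 of 6 HI15 arrays above every HI7.5 array, and replicate 6 of HI7.5 was that group's highest. Leaving out each array in turn gave medians of 0.11 to 0.19. Over only the members above the median level of all probe sets it was 0.06.

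Within cell division the higher values ran through replication and mitosis. Of 27 genes of replication licensing and DNA synthesis 24 were above 0, with a median of 0.16. FEN1, the flap endonuclease that trims Okazaki fragments, had 6.53, 6.81 and 7.18 in HI15, against 6.31, 6.56 and 6.79 in HI7.5, and was at 0.27 ± 0.12 (SE). The replication ligase LIG1 was at 0.23 ± 0.11, RPA2, a single-strand binding protein, at 0.21 ± 0.09, and the helicase subunits MCM2 and MCM4 at 0.31 ± 0.17 and 0.39 ± 0.25. RRM2 of deoxynucleotide supply had 6.34, 7.09 and 8.06 in HI15, against 5.82, 6.31 and 7.77 in HI7.5, and its groups overlapped through replicates 4, 5 and 6 of HI7.5, at 6.64, 6.35 and 7.77.

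Mitotic genes had similar medians. Mitotic kinases and spindle genes had 24 of 26 above 0 and a median of 0.19, with the spindle protein ASPM at 0.47 ± 0.25 (SE) and the nuclear import receptor KPNA2 at 0.48 ± 0.29. Kinetochore and checkpoint genes had 19 of 22 above 0 and 4 at p under 0.05. These were KNTC1 at 0.38 ± 0.17, the centromere proteins CENPN at 0.33 ± 0.14 and CENPM at 0.25 ± 0.11, and the checkpoint protein MAD2L1 at 0.22 ± 0.10. The checkpoint kinase BUB1 was the lowest member, at -0.22 ± 0.15. Cyclins, their kinases and E2F factors had a lower median of 0.06 over 21 genes, with the cell cycle phosphatase CDC25A at 0.29 ± 0.12. FEN1, LIG1, MCM2, MCM4, RRM2, ASPM, KPNA2, KNTC1, MAD2L1 and BUB1 were chosen for naming after their values were seen.

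Markers of blood cells were set beside this. The lymphocyte markers had a median of -0.02 and the red cell markers 0.01, while the array with the highest cell division mean in HI15, replicate 1 at 0.31, had means of 0.13 for lymphocyte and 0.03 for red cell markers. HI7.5 replicate 6, at 0.25 for cell division, had 0.14 and -0.39. Their part in the result was not tested. In HI7.5 minus HI0, which shares the HI7.5 arrays, the cell division median was -0.14, and in HI15 minus HI0 it was -0.02.

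Genes of the interferon response had a median of 0.06, with 37 of 54 above 0. Interferon genes answer viral nucleic acids through sensors, signalling factors and antiviral effectors, and these roles differed in their medians. Antiviral effectors had 22 of 26 above 0 and a median of 0.12, and signalling and transcription factors 4 of 14 and -0.04. Sensors of RNA and DNA had a median of 0.08 over 7 genes. List means per array were 0.04, 0.12 and 0.15 in HI15, against -0.08, -0.03 and 0.12 in HI7.5. All 6 HI15 arrays were above the HI7.5 mean, in a narrow range with an SD of 0.04, and 3 of them above every HI7.5 array. DDX60 is a member of the list and enters these array means. Over the members the mean difference was 0.11, against the median of 0.06. Array means without DDX60 were not computed, so no separation of the diets is read from this count.

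Interferon genes beyond DDX60 had smaller differences. ZC3HAV1, an antiviral zinc finger protein, had 8.22, 8.68 and 8.85 in HI15, against 7.92, 8.33 and 8.63 in HI7.5, and was at 0.31 ± 0.13 (SE). CMPK2, a mitochondrial nucleotide kinase, was at 0.34 ± 0.16, and IFIH1, the cytosolic RNA sensor also called MDA5, at 0.21 ± 0.11. TLR3, the endosomal RNA receptor, was at 0.34 ± 0.20 and EIF2AK2, the RNA-activated kinase, at 0.26 ± 0.15, both picked once their values were known. Antigen processing genes had a median of 0.08 over 7 genes. Without HI7.5 replicate 1 the median of the whole list was 0.03.

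**Figure D5:**
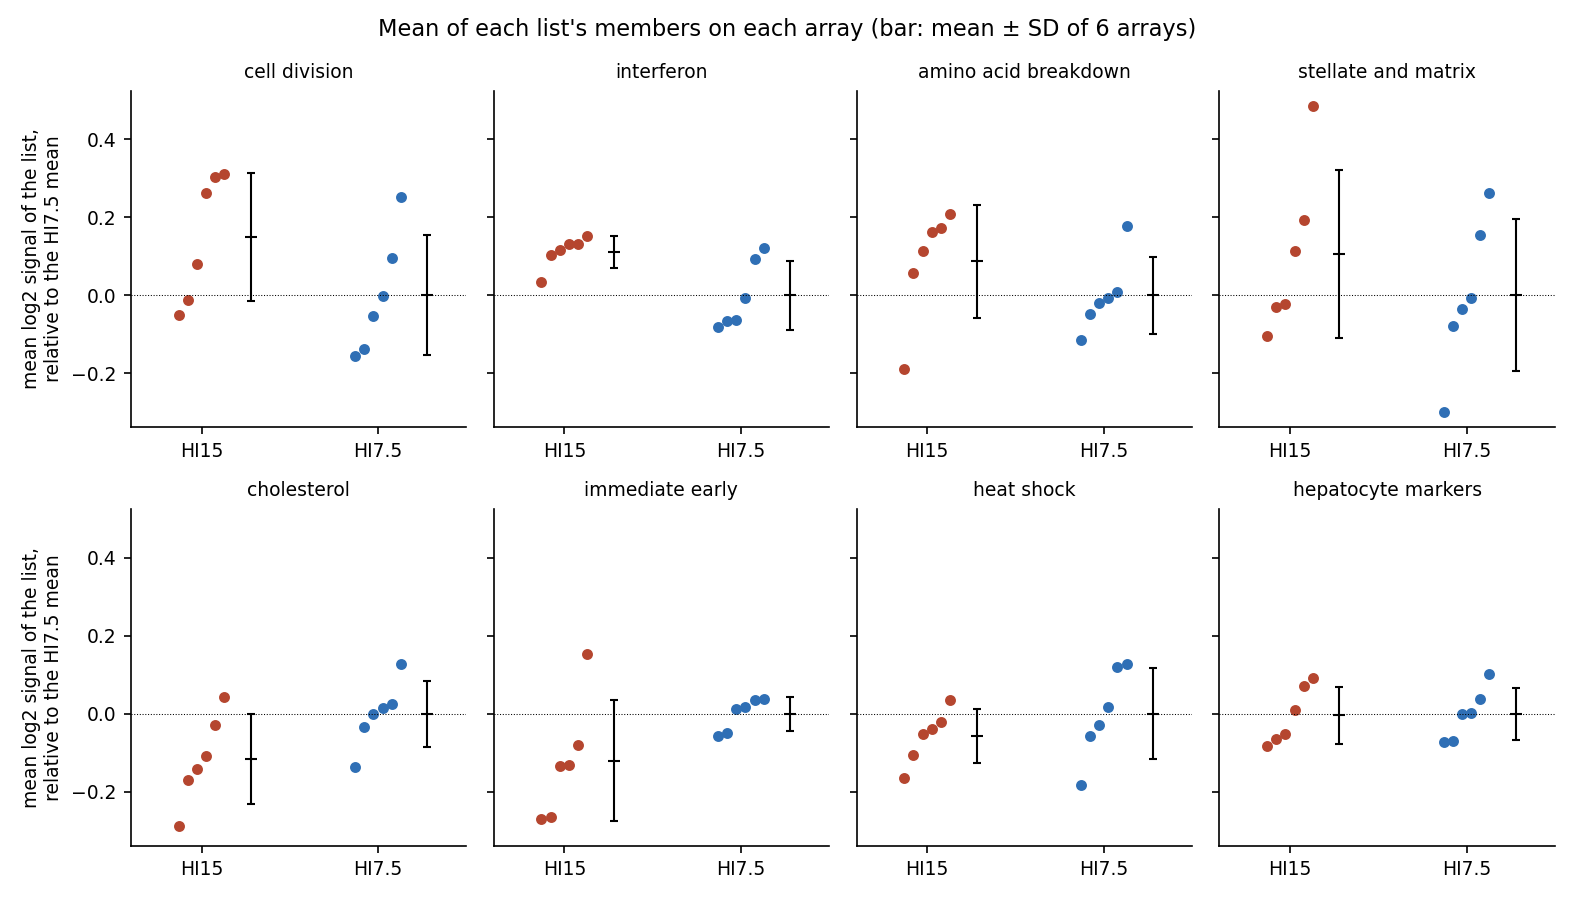
Mean log2 signal of the members of 8 lists on each array, relative to the mean of the HI7.5 arrays, with HI15 in red on the left, HI7.5 in blue on the right and the mean ± SD of 6 arrays beside them. The 6 HI15 arrays of the interferon list lie from 0.04 to 0.15, the groups overlap in every panel, and the hepatocyte markers lie from -0.08 to 0.09 in HI15 and from -0.07 to 0.10 in HI7.5.

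Cholesterol genes lay lower in HI15. The liver senses sterols through the SCAP and SREBP system, which switches on the synthesis enzymes and the uptake of lipoproteins. Of 31 genes 23 were below 0 and 8 above, with a median of -0.12, and 2 were lower and 0 higher at p under 0.05. List means per array were -0.29, -0.12 and 0.04 in HI15, against -0.14, 0.01 and 0.13 in HI7.5. Of the HI15 arrays 3 lay below every HI7.5 array, and replicate 5 was the lowest. Without that array the median was -0.06.

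HMGCS1, which makes the precursor that HMG-CoA reductase works on, had 11.23, 12.12 and 12.70 in HI15, against 12.03, 12.55 and 13.02 in HI7.5. HI15 replicate 5 was its lowest array at 11.23, and the difference was -0.51 ± 0.20 (SE). SCAP, the sterol-sensing protein that escorts SREBP, was at -0.34 ± 0.16, and INSIG1, which retains SCAP when sterols are plentiful, at -0.28 ± 0.15. NSDHL, a sterol dehydrogenase, was at -0.24 ± 0.16 and STARD4, a sterol carrier, at -0.27 ± 0.25, both picked once their values were known. Synthesis enzymes had 9 of 11 below 0, with a median of -0.12, which was -0.03 without HI15 replicate 5. Uptake, transport and esterification genes had 9 of 11 below 0, with a median of -0.12, which was -0.06 without HI15 replicate 6. Sensing and regulation genes had a median of -0.07, which was -0.02 without HI15 replicate 3.

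Lipid synthesis and secretion were divided. Fatty acid synthesis genes had a median of 0.03, with 7 of 13 above 0. Triglyceride and lipoprotein genes had 14 of 20 below 0 and a median of -0.05. MTTP, which loads lipid onto apolipoprotein B, had 11.10, 11.20 and 11.56 in HI15, against 11.36, 11.48 and 11.57 in HI7.5, and was at -0.21 ± 0.10 (SE). The acyltransferase GPAT3 was at 0.30 ± 0.17 and APOV1, an apolipoprotein of laying hens, at -0.25 ± 0.14. PLIN2, which coats lipid droplets, was at -0.36 ± 0.28 and the acyltransferase GPAM at -0.34 ± 0.22, both picked once their values were known.

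Fatty acid oxidation had a median of 0.06, with 37 of 52 above 0. Mitochondrial beta-oxidation enzymes had 13 of 14 above 0 and a median of 0.08, and differences from -0.03 to 0.21. SLC27A4, a fatty acid transport protein, had 9.97, 10.04 and 10.38 in HI15, against 9.51, 9.82 and 10.08 in HI7.5, and was at 0.30 ± 0.14 (SE). HACL1, which shortens branched fatty acids in peroxisomes, was at 0.25 ± 0.14. PDK4, which spares glucose when fat is burned, was at 0.53 ± 0.34 and the coactivator PPARGC1A at 0.34 ± 0.20, both picked once their values were known. The regulators ran from ANGPTL4 at -0.60 to PDK4, and their median was 0.05.

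Replicate 4 of each diet stood out in 4 genes that were picked once their values were known, of which PLIN2 belongs to the triglyceride genes. On the mean of the whole fatty acid oxidation list replicate 4 lay inside the range of its diet, at 0.07 in HI15 and 0.02 in HI7.5. HI15 replicate 4 had the lowest ANGPTL4 and PLIN2 of its group, at 8.33 and 11.05, and the highest PDK4 and PPARGC1A, at 9.15 and 9.11. HI7.5 replicate 4 held the same places in its own group, at 7.37 for ANGPTL4, 11.27 for PLIN2, 8.71 for PDK4 and 8.88 for PPARGC1A. The pattern ran within both diets, and differences between the diets in these 4 genes were smaller than the range within either.

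Glucose genes had a median of 0.05, with 19 of 26 above 0. The genes of glucose output included the list's lowest member, PCK1, and also G6PC2, its single gene at p under 0.05. Glycolysis and glycogen genes had 13 of 16 above 0 and differences from -0.18 to 0.40. List means per array ran from -0.11 to 0.11 in HI15 and from -0.12 to 0.20 in HI7.5, and no HI15 array lay outside the HI7.5 range.

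Genes of amino acid breakdown were mostly above 0. Of 70 genes 58 were above 0 and 12 below, with a median of 0.07, and 2 were higher at p under 0.05. List means per array were -0.19, 0.14 and 0.21 in HI15, against -0.11, -0.01 and 0.18 in HI7.5. Of the HI15 arrays 5 were above 0 and replicate 6 lay below every HI7.5 array. Without replicate 6 of HI15 the median was 0.12, and its range over all omissions was 0.05 to 0.12.

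ASS1, argininosuccinate synthetase of arginine synthesis, had 8.71, 8.91 and 9.28 in HI15, against 7.76, 8.33 and 9.02 in HI7.5. Its HI7.5 arrays were the more spread, and the difference was 0.54 ± 0.24 (SE). UROC1, urocanase of histidine breakdown, had 9.26, 9.98 and 10.28 in HI15, against 9.09, 9.38 and 9.56 in HI7.5, a difference of 0.47 ± 0.18, while its other probe set was at 0.02. The glycine decarboxylase GLDC was at 0.28 ± 0.24, chosen after its values were seen. Medians by group of amino acids were 0.06 for histidine and tyrosine, 0.06 for tryptophan and lysine and 0.08 for glycine, serine and threonine. They were 0.07 for sulphur amino acids, 0.07 for branched-chain amino acids and 0.10 for glutamate, proline, arginine and aspartate. No group of amino acids stood far from the others.

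Purine and urate genes, the bird's route for surplus nitrogen, had a median of 0.00, with 12 of 23 above 0. Purine synthesis had 6 of 13 above 0 and purine breakdown with urate transport 6 of 10. GLUL, glutamine synthetase, which supplies nitrogen to the purine ring, had 11.34, 11.60 and 12.07 in HI15, against 10.45, 11.44 and 11.73 in HI7.5, and was at 0.34 ± 0.18 (SE), with its other probe set at 0.54. Without HI7.5 replicate 1, the lowest GLUL array at 10.45, the difference was 0.17. SLC22A7, an organic anion transporter, was at -0.32 ± 0.18. No gene of the list reached p under 0.05.

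Genes that respond to a shortage of amino acids were at a median of -0.03, with 16 of 25 below 0. The transporters had 8 of 10 below 0 and a median of -0.09, led by SLC38A2. SLC7A5, a transporter of large neutral amino acids, was at -0.20 ± 0.12 (SE), and ATF4, the transcription factor of this response, at -0.22 ± 0.12 with its other probe set at -0.10. STC2, stanniocalcin, was the highest member at 0.50 ± 0.25. Synthesis enzymes of the list had a median of 0.01 over 6 genes.

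Immediate early genes, which answer hormones, handling and stress within minutes, lay below 0 in 29 of 36 genes, with a median of -0.09. Their transcription factors had 14 of 16 below 0 and a median of -0.14. List means per array were -0.27, -0.13 and 0.15 in HI15, against -0.06, 0.02 and 0.04 in HI7.5. Of the HI15 arrays 5 lay below every HI7.5 array, and replicate 6 of HI15 above every one. The HI7.5 arrays lay close together, with an SD of 0.04, against 0.16 in HI15. Without HI15 replicate 5 the median was -0.06 and without replicate 6 it was -0.13. In HI7.5 minus HI0, which shares the HI7.5 arrays, the median was 0.10, and in HI15 minus HI0 it was -0.02. The HI0 array means ran from -0.24 to 0.12 relative to the HI7.5 mean.

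KLF6, a zinc finger factor, was the immediate early gene at p under 0.05. It had 7.63, 8.10 and 8.49 in HI15, against 8.24, 8.46 and 8.60 in HI7.5, and was at -0.35 ± 0.14 (SE). EGR1, a growth and stress-induced factor, had 7.35, 7.91 and 9.20 in HI15, against 7.87, 8.75 and 9.30 in HI7.5, a difference of -0.73 ± 0.37. Both EGR1 groups were widely spread, and the highest HI15 array, replicate 6 at 9.20, lay within the HI7.5 range. The nuclear receptor NR4A3 was at -0.49 ± 0.26 and the kinase SGK1, induced by glucocorticoids, at -0.40 ± 0.22. JUN was at -0.29 ± 0.19, FOS at -0.28 ± 0.19 and ATF3 at -0.40 ± 0.35, chosen after their values were seen.

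Chaperones of the cytosol lay slightly lower and those of the endoplasmic reticulum did not lean. Heat shock genes had 23 of 32 below 0 and a median of -0.07, with HSPH1 at -0.29 ± 0.17 (SE) and HSPA4L at -0.21 ± 0.14, both exchange factors of the Hsp70 chaperones. Array means of the heat shock list ran from -0.17 to 0.04 in HI15 and from -0.18 to 0.13 in HI7.5. Endoplasmic reticulum chaperones and stress sensors had a median of 0.00, with ERN1 as the lowest member and EIF2AK3, the sensor PERK, at -0.17 ± 0.12. HI7.5 replicate 5 had the highest mean of that list, at 0.41.

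Stellate cell and matrix genes had a median of 0.10, with 40 of 52 above 0. Stellate cells store vitamin A in the liver and are its main source of collagen. Their markers had 13 of 15 above 0 and 3 at p under 0.05. LUM, lumican of the collagen matrix, had 8.32, 8.61 and 9.30 in HI15, against 8.0, 8.16 and 8.54 in HI7.5, and was at 0.47 ± 0.21 (SE). LRAT, which esterifies retinol for storage, was at 0.34 ± 0.15, RGS5, a marker of pericytes, at 0.43 ± 0.20 and the growth factor receptor PDGFRA at 0.29 ± 0.16. MMP2, a matrix protease, was at 0.43 ± 0.30, chosen after its values were seen.

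Means of the stellate and matrix list per array were -0.10, 0.05 and 0.49 in HI15, against -0.30, -0.02 and 0.26 in HI7.5, and the highest was HI15 replicate 6. Without it the median of the whole list was 0.00 and that of collagens and other matrix 0.00. The stellate markers kept a median of 0.05 or more under every omission, the lowest without HI7.5 replicate 5. HI15 replicate 6 also had the highest means of the endothelial markers, 0.40, and of the red cell markers, 0.51, and the lowest amino acid breakdown mean of the 12. Over the 13 endothelial markers 9 were above 0, and their array means ran from -0.11 to 0.40 in HI15 and from -0.25 to 0.30 in HI7.5. ESAM and EGFL7 of that list were at 0.16 ± 0.11 and -0.11 ± 0.10 (SE). The part of these markers in the stellate result was not tested. The matrix genes without the stellate markers had a median of 0.10 for collagens and other matrix and 0.00 for matrix turnover and TGF-beta.

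Mitochondrial and ribosomal genes were mostly above 0, with small medians. Respiratory chain genes had 43 of 57 above 0 and a median of 0.06, which was 0.01 without HI15 replicate 4 and 0.11 without HI15 replicate 6. All 8 measured genes of complex V, the ATP synthase, were above 0, between 0.02 and 0.18. NDUFA7 of complex I was at 0.29 ± 0.14 (SE) and SURF1, an assembly factor of complex IV, at 0.17 ± 0.08. Cytosolic ribosomal proteins had 40 of 53 above 0 and a median of 0.06. RPS29 had 10.87, 11.14 and 11.40 in HI15, against 10.75, 10.85 and 11.12 in HI7.5, and was at 0.26 ± 0.10. RPS3 was at 0.14 ± 0.08, and RPL23 at 0.16 ± 0.08 on its brightest probe set and -0.10 on its other one.

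Whether probes of ribosomal protein genes read more than 1 gene was not tested. Proteasome genes had a median of 0.02, with PSMB3 of the core particle at 0.23 ± 0.11 (SE) and PSMD5, an assembly chaperone, at 0.15 ± 0.09. Without HI15 replicate 5 the ribosomal median was 0.03, and without HI15 replicate 1 it was 0.11.

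Genes of redox defence and of foreign compound metabolism had medians close to those of the mitochondrial lists. Antioxidant genes had 17 of 24 above 0, a median of 0.06 and 3 members at p under 0.05. NFE2L2, the transcription factor Nrf2 that switches on many of them, had 7.28, 7.50 and 7.65 in HI15, against 7.04, 7.29 and 7.46 in HI7.5, and was at 0.23 ± 0.09 (SE). GCLM, the modifier subunit of glutathione synthesis, was at 0.23 ± 0.10, GPX4, which reduces lipid peroxides, at 0.28 ± 0.13, and the mitochondrial thioredoxin TXN2 at 0.17 ± 0.09. In GPX4 4 HI15 arrays, the highest at 11.71, lay above the HI7.5 range of 10.89 to 11.08, and without that highest array, replicate 5, the difference was 0.18. Xenobiotic genes had 19 of 29 above 0 and a median of 0.06.

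The xenobiotic members highest in HI15 were cytochromes, with CYP2C45 at 0.47 ± 0.88 (SE). The CYP2C45 direction was set by single arrays, since it was -0.33 without HI7.5 replicate 4 and -0.021 without HI15 replicate 4. CYP1A2, induced by planar aromatic compounds through the aryl hydrocarbon receptor, had 9.74, 10.30 and 10.72 in HI15, against 9.23, 9.92 and 10.44 in HI7.5, and was at 0.41 ± 0.21 (SE). CYP1A1, of the same regulation, was at 0.34 ± 0.20; CYP1A1 and CYP2C45 were picked once their values were known. SULT1E1, a sulfotransferase of estrogens, was at 0.20 ± 0.10. Xenobiotic list means were -0.16, 0.16 and 0.24 in HI15, against -0.18, 0.01 and 0.11 in HI7.5. In HI15 4 of 6 arrays lay above every HI7.5 array, while replicate 6 lay near the lowest. CYP2C45, which ran from 6.84 to 13.39 in HI15 and from 6.43 to 11.98 in HI7.5, enters these means. Array means without CYP2C45 were not computed, so no separation of the diets is read from this count.

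Bile acid, iron and chitin-related genes had no member at p under 0.05. Bile acid genes had a median of -0.04 over 15 genes, with the transporter genes SLCO1B1 at -0.38 ± 0.22 (SE) and SLCO1C1 at -0.29 ± 0.15. SLCO1C1 was dim, from 4.30 to 5.13 in HI15 and from 4.44 to 5.29 in HI7.5. Iron, copper and zinc genes had a median of 0.03. The iron exporter SLC40A1, ferroportin, was at -0.18 ± 0.09 and the transferrin receptor TFRC at 0.20 ± 0.14, but the other probe set of TFRC was at -0.015. Genes of chitin, amino sugars and glycan breakdown had 8 of 10 above 0 and a median of 0.05. Among them GFPT1, the first enzyme of amino sugar synthesis, was at 0.11 ± 0.10. The highest member, OVSTL at 0.28 ± 0.24, is named for ovostatin, a proteinase inhibitor, and not for an enzyme of chitin or amino sugars. CHIA, the acidic chitinase, was at 0.05, with mean signals of 8.03 in HI15 and 7.98 in HI7.5.

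Acute phase and inflammation genes had a median of -0.03, with 30 of 46 below 0 and none at p under 0.05. SOCS3, which damps cytokine signalling, had 7.59, 8.04 and 8.36 in HI15, against 7.93, 8.25 and 9.74 in HI7.5, and was at -0.46 ± 0.24 (SE). HI7.5 replicate 5 was the highest SOCS3 array at 9.74, and the same array had the highest mean of the list at 0.14. Without it SOCS3 was at -0.20. IL1R2, the interleukin 1 decoy receptor, was at -0.44 ± 0.22 and the receptor gene TLR1B at -0.29 ± 0.15, with its other probe set at 0.02. IL1R2 was at -0.24 without HI7.5 replicate 4, its highest array at 6.34. The HI15 arrays of IL1R2 were dim, from 4.58 to 5.11. Myeloid markers, which lay at a median of -0.10, ran from -0.16 to 0.00 in HI15 and from -0.34 to 0.21 in HI7.5 as array means. Their part in the acute phase result was not tested.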

How the data were processed

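Liver RNA was hybridised to single-colour Affymetrix arrays. The authors deposited 1 log2 signal for each probe set and array; the submitters' processing notes name RMA and Affymetrix Expression Console 1.4. Without detection calls, all probe sets were kept. Of 18226 probe sets 12300 carried 1 gene symbol, 256 several and 5670 none in the platform annotation, and 11727 of those with 1 symbol matched the RefSeq gene table of assembly GRCg7b. The files name no genome build, so no coordinates are given. The probe set with the highest mean stood for a gene with more than 1 (651 genes, in 272 of which probe sets differed in sign).

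Each probe set was fitted in limma 3.58.1 under R 4.3.3 (lmFit, eBayes, 1 mean per diet over all 18 arrays, 15 residual degrees of freedom), with two-sided p-values, the Benjamini-Hochberg adjustment across the whole table and calls at 0.05. HI0 enters only the shared estimate of spread. The fit was run on simulated data with independent noise for each probe set, a setting without the shared variation of genes seen here. Where no gene is called, the genes named are the 10 smallest p, the 5 largest differences and the 5 widest gaps between groups in each direction. In each of 30 lists up to 4 members with the smallest p are added, those at p under 0.1 or else the first 2. ALB, TTR, CPS1, INS and CHIA are list members named outside this rule. Every further gene is said to be picked with its values known. The comparison, lists and rule were chosen with earlier results of these data known. Groups come from the labels. Replicate numbers follow the order of deposit. The last number of the titles falls into runs of 6. For HI15 and HI7.5 arrays of the same run, correlations of their deviations from the diet mean ran from -0.29 to 0.19, over 0.1 in 3 of 6 pairs. Pairs of different runs were not set beside them, so no effect of the run is read from these values. The samples were not treated as paired. The replicate 4 arrays of HI15 and HI7.5, alike in ANGPTL4, PLIN2, PDK4 and PPARGC1A, are of the same run. Alternatives were quantile normalization, array medians subtracted, only probe sets above the median level, only the 12 arrays, array weights, a variance trend together with robust eBayes, the title number, its run as a block, other probe sets of a gene and each array left out. Promoter sequences were not used here. The spread of values on each array as a covariate was added after seeing the data.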

Additional observations from a re-analysis of the deposited data

Results flagged for a closer look

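In 344 sets of 6 arrays, for each named gene and list in each diet, the highest or lowest array was compared with the rest, and 19 stood apart by Dixon's test at its 95% critical value. Chance alone flags about 1 in 20. Many of the genes were named for a small p, a wide difference or a gap in these same data. Others, among them ANGPTL4, CYP2C45, PLIN2, PPARGC1A, PDE11A and GLDC, were picked once their values were known. The flags therefore only describe single arrays, and nothing is read from their count.

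Replicate 4 of HI7.5 stood apart in 5 genes: it was lowest for ANGPTL4 at 7.37 (other arrays of the diet 10.63 to 11.68), for CYP2C45, a cytochrome, at 6.43 (10.76 to 11.98) and for PLIN2 at 11.27 (12.42 to 12.93), and highest for NR4A3 at 7.80 (6.11 to 6.71) and for PPARGC1A at 8.88 (7.65 to 8.11). Replicate 6 of HI15 stood apart in 4: it was highest for TMEM154 at 8.67 (5.51 to 6.43) and PDE11A at 7.32 (5.53 to 6.07), and lowest for GLDC at 8.92 (10.02 to 10.63) and SLC7A5 at 8.49 (8.86 to 9.03). Replicate 5 of HI15 was highest for CREG2 at 7.62 (7.08 to 7.26) and lowest for APOA1 at 14.05 (14.17 to 14.19). Replicate 5 of HI7.5 was highest for APOA1 at 14.25 (14.05 to 14.11) and for SOCS3 at 9.74 (7.93 to 8.60). Replicate 2 of HI15 was highest for DNAJB8 at 5.91 (5.44 to 5.51) and GPAT3 at 8.58 (7.71 to 7.99), and replicate 4 of HI15 lowest for AP3B2 at 5.96 (6.17 to 6.25). Replicate 1 of HI7.5 was lowest for LOC422154 at 6.79 (8.63 to 9.42) and highest for RPS29 at 11.12 (10.75 to 10.88), and replicate 6 of HI7.5 highest for KNTC1 at 5.96 (5.16 to 5.45).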

How the results depend on the processing

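Under all 9 alternatives run on the whole table and all 12 omissions of an array, limma called 0 probe sets, with adjusted p-values no lower than 0.255, with the title number as a covariate. The number at an unadjusted p under 0.05, 576 as reported, was 240 (133 higher, 107 lower) among the 9113 probe sets above the median level, where fewer were tested, and 1225 (559 higher, 666 lower) with the array spread as a covariate, chosen after seeing the data; the cause of the second was not tested. The other alternatives gave between 526, with the run of the title number as a replicate block, and 845, with array weights, and omissions of 1 array 457 to 829. The block changed no call, and 1 of 6 HI15 arrays correlated best with the HI7.5 array of its own run. Of 142 named genes, the sign turned for the other probe sets of SLC45A3 (0.052), RPL23 (-0.10), TFRC (-0.015) and TLR1B (0.022). It also turned for CYP2C45 when an array was left out (-0.33 to 1.29). These are 6 of 2939 values. Many of the genes were named for a small p or a wide difference in these same data, so nothing is read from the low count. None of 660 list medians moved by as much as the SD of the list's array means. Leaving out 1 array of 6 can hardly move a median that far, so nothing is read from this. The median changed sign when 1 array was left out in 6 of 22 process lists (purine and urate, endoplasmic reticulum chaperones, iron, copper and zinc, proteasome, stellate and matrix, chitin) and 7 of 8 marker lists. Of the 10 other alternatives for a list, 3 turned the sign of the endoplasmic reticulum chaperones and 4 that of the pancreas and gut markers. The sign also turned for the hepatocyte markers in 2, the lymphocyte markers in 2 and the muscle and fat markers in 1. Of the 142 genes 47 moved toward 0 by over 1.5 times, or past it, without 1 array. With 6 arrays a diet, the median half-width of a 95% interval was 0.26 on the log2 scale, which limits what could be resolved; background and detection were not given.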

Other observations

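Some liver genes varied far more within each diet than between the doses. CYP2C45 ran from 6.84 to 13.39 in HI15 and from 6.43 to 11.98 in HI7.5, the widest spread of all genes, with a difference of 0.47 ± 0.88 (SE). BF2, a classical major histocompatibility class I gene, had 7.49, 11.10 and 11.42 in HI15 and 7.69, 10.12 and 10.87 in HI7.5. In each diet 2 arrays were at 8.13 or below and the other 4 at 9.72 or above, and the difference was 0.54 ± 0.69, or 0.17 without HI7.5 replicate 4. GIMAP6, a GTPase of lymphocytes, ran from 6.87 to 9.75 in HI15 and from 6.71 to 9.33 in HI7.5, and CA4, a membrane carbonic anhydrase, from 7.74 to 10.93 and from 6.21 to 10.72, HI15 before HI7.5. All of these were chosen after their values were seen.

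MicroRNA genes were grouped after values were seen. The table holds 392 of them, with 203 above 0, 186 below and a median difference of 0.01. Their probe sets were dimmer than those of all genes, at a median signal of 5.72 against 7.58, and more variable, with a median SD within a diet of 0.28 against 0.20. At an unadjusted p under 0.05 18 were higher and 12 lower, which is 4.59% and 3.06% of them, against 1.61% and 0.946% of all genes. That background is itself low, since 576 probe sets passed this p where 911 would on average if nothing differed. The main fit also used 1 prior for the spread of all probe sets, and its effect on this more variable class was not tested. No excess of microRNA genes is therefore read from these shares.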
